A study of Mus musculus with 12 samples.

Results

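The 9 genes described here encode the enzymes that load, interconvert and burn folate-bound carbon in the cytosol and in mitochondria, with the carrier that brings folate into the cell. They were chosen by gene name: 3 cytosolic enzymes (Mthfd1, Shmt1 and Aldh1l1), 5 mitochondrial enzymes (Mthfd2, Mthfd2l, Mthfd1l, Shmt2 and Aldh1l2) and the plasma membrane carrier Slc19a1. Each name stood on 1 line of every table, out of 53932 gene identifiers, and all 9 passed the filter that left 16982 genes for testing.

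RNA sequencing of total RNA gave the levels in 12 libraries from cultured C57BL/6 mouse cells, 3 in each of 4 groups. MIM-Astrocytes were astrocytes moved out of serum into MIM, a serum-free base medium with FGF2 at 20 ng/mL and up to 6 metabolites (methionine, threonine, glycine, cysteine, S-adenosylmethionine and putrescine), and collected by day 5. Which of those metabolites these libraries received is not given. Glioblastoma was a malignant glial culture labelled with cerebella and E18.5 (an embryonic day), with no driver mutation, transgene or derivation stated in the labels. NSC were neural stem cells of embryonic day 14.5 cortex, kept as neurospheres with EGF and FGF2 at 20 ng/mL each. Astrocytes were kept in medium with 10% serum, came either from sorted postnatal cortex or from differentiated neurospheres, and carry the label of embryonic day 14.5 cortex, as do MIM-Astrocytes. Glycine, a product of the reaction of Shmt1 and Shmt2, was thus among the possible additions to MIM.

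Folate carries single carbons taken mostly from serine. In mitochondria, Shmt2 splits serine into glycine and a folate-bound carbon, Mthfd2 or Mthfd2l oxidises that carbon, and Mthfd1l releases it as formate, which leaves for the cytosol. There Mthfd1, which joins 3 activities in 1 protein, puts formate back on folate for the synthesis of purines, thymidylate and methionine, and Shmt1 can run its reaction in either direction. Aldh1l1 in the cytosol and Aldh1l2 in mitochondria oxidise formyl-folate to CO2 and make NADPH. Aldh1l1 is a widely used astrocyte marker, and Mthfd2 is known as an enzyme that is low in most adult tissues and high in many tumours.

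To show the DNA upstream of mitochondrial genes that differed between the groups, 3 promoters are printed. RefSeq windows on GRCm38.p6 were given for 8 of the 9 genes. The 3 belong to mitochondrial members that were higher in both MIM-Astrocytes and Glioblastoma than in Astrocytes, and none holds an annotated exon base of its gene; the RefSeq start of Mthfd2 lies inside a longer annotated gene. Capitals mark TGATG (on either strand, so also CATCA), the first 5 letters of the C/EBP-ATF response element, and CCAAT or its reverse complement ATTGG.
Mthfd2, chr6:83317607-83317854, minus strand: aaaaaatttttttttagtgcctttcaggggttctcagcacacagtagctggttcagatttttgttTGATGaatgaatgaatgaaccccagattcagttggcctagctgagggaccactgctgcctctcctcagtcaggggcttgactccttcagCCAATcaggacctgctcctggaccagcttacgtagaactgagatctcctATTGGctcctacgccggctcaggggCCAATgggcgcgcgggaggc
Mthfd1l, chr10:3972825-3973074, plus strand: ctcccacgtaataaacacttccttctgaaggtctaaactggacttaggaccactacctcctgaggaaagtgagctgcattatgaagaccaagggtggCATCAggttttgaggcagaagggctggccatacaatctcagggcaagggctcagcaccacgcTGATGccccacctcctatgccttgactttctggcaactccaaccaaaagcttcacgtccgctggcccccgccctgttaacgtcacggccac
Shmt2, chr10:127522445-127522694, minus strand: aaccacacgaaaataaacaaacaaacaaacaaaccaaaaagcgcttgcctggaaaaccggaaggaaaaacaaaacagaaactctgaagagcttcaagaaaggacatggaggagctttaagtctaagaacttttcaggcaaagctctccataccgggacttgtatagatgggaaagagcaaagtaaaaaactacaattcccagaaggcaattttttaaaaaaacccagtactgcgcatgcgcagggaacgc
The Mthfd2 window held CCAAT 3 times and TGATG 1 time, the Mthfd1l window held TGATG 2 times and no CCAAT, and the Shmt2 window held neither. Of the 8 genes with windows, 3 held TGATG (Mthfd2, Mthfd1l and the cytosolic Mthfd1). CCAAT was held by 4 of the 8, namely Mthfd2 and the cytosolic Mthfd1, Shmt1 and Aldh1l1. These letters were thus not particular to the mitochondrial genes. Of all 32851 promoter windows, 34.5% held TGATG and 33.8% held CCAAT in the same 250 bases. The longer letters TGATGNAA, which contain TGATG and which 3.45% of windows held, were in none of the windows of the 8 genes, nor were the E-box CACGTG (6.02% of windows) or TTTNNCGC (4.28%), an E2F-like element. TGATG and CCAAT were added to the search after the sequences had been read.

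Levels are in FPKM (fragments per length of transcript and per mapped fragments of the library), so different genes can be set side by side within a library. Differences are of log2(FPKM + 1) from limma over all 12 libraries, with SE, and a gene is called where the Benjamini-Hochberg adjusted p over 16982 genes is below 0.05. The log2(FPKM + 1) scale understates the change of genes near 1 FPKM. The labels do not tie libraries to separate cultures or animals, so p-values measure the spread between these libraries, and comparisons that share a group are not independent of each other. In whole cultures, fewer cells that express a gene and less RNA of it per cell cannot be told apart. The tables hold no counts: read as 2 standard deviations to either side, the intervals deposited with the values imply between 17.3 fragments (Mthfd2 in NSC) and 3909 fragments (Shmt2 in Glioblastoma) behind a single value, with interval half-widths of 48.1% and 3.2% of the value. The summed FPKM of a library ran from 514728 to 979106 and had its highest mean in Glioblastoma.

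Most genes differed between any 2 of these cultures, so a call on its own says little about folate genes. In MIM-Astrocytes against Astrocytes 6 of the 9 members were called, beside 61.4% of all tested genes. Against Glioblastoma, MIM-Astrocytes differed in 9 of 9, beside 69.8%, and against NSC in 6 of 9, beside 55.9%. Glioblastoma differed from NSC in 8 of 9, beside 69.9%, and from Astrocytes in 9 of 9, beside 78.3%. NSC differed from Astrocytes in 9 of 9, beside 71.2%. Libraries of the 2 groups did not overlap for 6 members in MIM-Astrocytes against Astrocytes, beside 64.5% of all genes, for 9 against Glioblastoma, beside 74.5%, and for 7 against NSC, beside 62.3%. The same held for 8 members in Glioblastoma against NSC, beside 75.0%, for 9 against Astrocytes, beside 79.9%, and for 9 in NSC against Astrocytes, beside 73.0%. The members' counts lie near or above these shares, and the description that follows rests on sizes and directions.

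**Figure D1:**
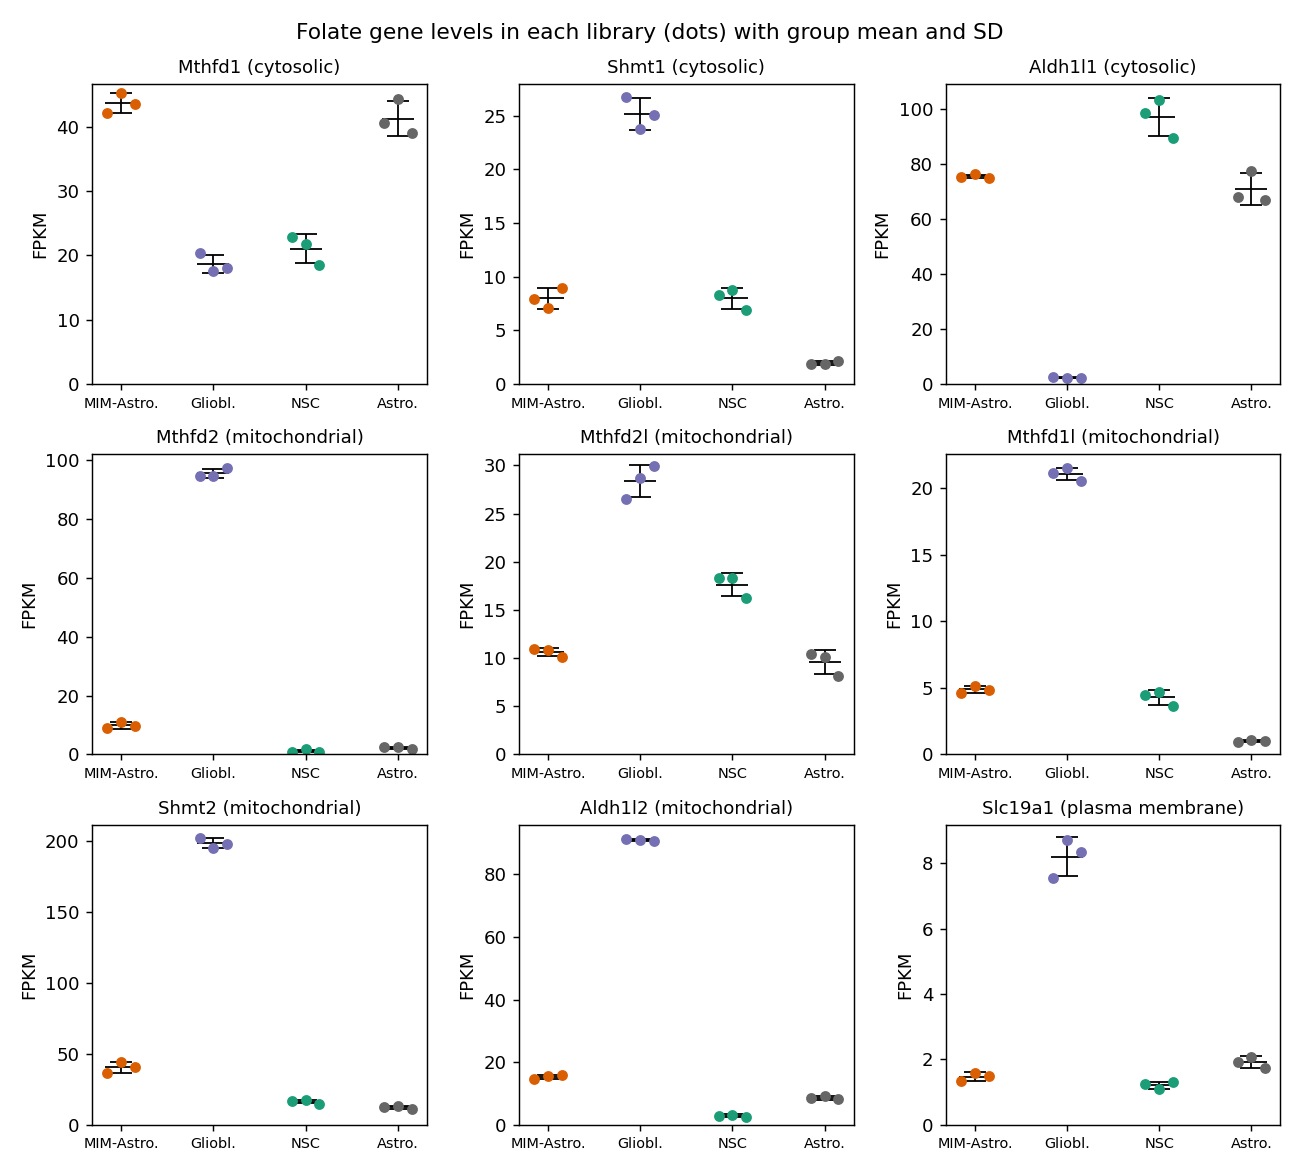
Level of each of the 9 genes in FPKM (vertical axes from 0) in every library (dots) of MIM-Astrocytes, Glioblastoma, NSC and Astrocytes, with the group mean and SD (n = 3). All 5 mitochondrial genes, Shmt1 and Slc19a1 are highest in Glioblastoma, where Aldh1l1 is between 2.09 and 2.51 FPKM.

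The mitochondrial enzymes stood highest in Glioblastoma. In MIM-Astrocytes 4 of the 5 were higher than in Astrocytes, and 3 were higher and 1 lower than in NSC. Mthfd2, the mitochondrial dehydrogenase and cyclohydrolase (ENSMUSG00000005667.8, GRCm38 chromosome 6, 83305691 to 83325908, minus strand, the first of the promoters printed above), was at 8.94, 11 and 9.58 FPKM in MIM-Astrocytes. It reached 94.5, 94.7 and 97.2 FPKM in Glioblastoma. It was at 0.907, 1.71 and 0.96 FPKM in NSC and at 2.46, 2.50 and 1.80 FPKM in Astrocytes. No 2 groups overlapped, and the order from high to low was Glioblastoma, MIM-Astrocytes, Astrocytes, NSC, each step called. Mthfd2 was 79.9 times as high in Glioblastoma as in NSC by mean FPKM (log2 difference 5.48, SE 0.14, adjusted p = 2.96e-10) and 42.4 times as high as in Astrocytes (4.90, adjusted p = 2.27e-10). The NSC level lay below that of Astrocytes (-0.58, SE 0.14, adjusted p = 0.00343). The NSC values are near 1 FPKM, with 17.3 to 24.7 fragments implied behind each. The proliferation antigen Mki67 averaged 20.3 FPKM in NSC and 0.112 FPKM in Astrocytes, and its relation to Mthfd2 was not tested.

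Shmt2, which takes the carbon from serine in mitochondria (ENSMUSG00000025403.5, chromosome 10, 127517123 to 127522444, minus strand), was the most abundant mitochondrial member in MIM-Astrocytes, Glioblastoma and Astrocytes. It stood at 36.5, 44.4 and 40.9 FPKM in MIM-Astrocytes, at 202, 195 and 198 FPKM in Glioblastoma, at 16.6, 17.3 and 14.99 FPKM in NSC and at 12.4, 13.5 and 11.4 FPKM in Astrocytes. Every Glioblastoma library was above every other library by a wide gap, and MIM-Astrocytes came next. Glioblastoma exceeded NSC by 12.2 times (log2 difference 3.53, SE 0.08, adjusted p = 1.82e-10), and MIM-Astrocytes exceeded NSC by 2.49 times (1.26, SE 0.08, adjusted p = 7.56e-07). The smaller step between NSC and Astrocytes (0.37, SE 0.08, adjusted p = 0.00254) was absent when every library was scaled to a common total (-0.0064, adjusted p = 0.953), so its direction is not settled.

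Mthfd1l, the mitochondrial formate ligase (ENSMUSG00000040675.17, chromosome 10, 3973118 to 4167081, plus strand), was at 4.65, 5.14 and 4.83 FPKM in MIM-Astrocytes and at 21.1, 21.5 and 20.6 FPKM in Glioblastoma. NSC had 4.45, 4.70 and 3.67 FPKM and Astrocytes 0.902, 1.10 and 0.986 FPKM. Astrocytes were thus alone at the low end, and MIM-Astrocytes and NSC overlapped. Mthfd1l rose in MIM-Astrocytes against Astrocytes by 1.56 (SE 0.08, adjusted p = 3.13e-08), and in NSC against Astrocytes by 1.40 (SE 0.08, adjusted p = 5.21e-08). Between MIM-Astrocytes and NSC the difference was 0.16, with a 95% interval of -0.01 to 0.33 (adjusted p = 0.0959), and it was called without NSC replicate 2 (0.22, adjusted p = 0.039). The rise in Glioblastoma over Astrocytes was 21.1 times (3.47, SE 0.08, adjusted p = 3.71e-11).

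Aldh1l2, the mitochondrial formyl-folate dehydrogenase (ENSMUSG00000020256.14, chromosome 10, 83487450 to 83534140, minus strand), followed the order of Mthfd2. MIM-Astrocytes had 14.6, 15.5 and 15.9 FPKM, Glioblastoma 91.4, 90.8 and 90.6 FPKM, NSC 2.97, 3.28 and 2.44 FPKM and Astrocytes 8.52, 9.27 and 8.16 FPKM. No groups overlapped, with NSC again lowest. Aldh1l2 was 31.4 times as high in Glioblastoma as in NSC (log2 difference 4.57, SE 0.08, adjusted p = 2.38e-11). It rose 1.77 times in MIM-Astrocytes over Astrocytes (0.76, SE 0.08, adjusted p = 1.15e-05) and fell in NSC against Astrocytes (-1.31, SE 0.08, adjusted p = 1.06e-07).

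Mthfd2l, the second mitochondrial dehydrogenase and cyclohydrolase (ENSMUSG00000029376.8, chromosome 5, 90931117 to 91021368, plus strand), spanned the smallest range of the 5. It was at 10.9, 10.8 and 10.2 FPKM in MIM-Astrocytes, at 26.6, 28.7 and 29.9 FPKM in Glioblastoma, at 18.3, 18.4 and 16.2 FPKM in NSC and at 10.5, 10.1 and 8.12 FPKM in Astrocytes. MIM-Astrocytes and Astrocytes overlapped (0.14, 95% interval -0.06 to 0.34, adjusted p = 0.192, and -0.17 under a common total), and NSC lay above both. Against NSC it was lower in MIM-Astrocytes (-0.68, SE 0.09, adjusted p = 0.000107) and higher in Glioblastoma (0.66, SE 0.09, adjusted p = 7.44e-05). In Glioblastoma, Mthfd2l averaged 28.4 ± 1.69 FPKM beside 95.5 ± 1.52 FPKM of Mthfd2, whereas in NSC Mthfd2l averaged 17.6 ± 1.21 FPKM beside 1.19 ± 0.452 FPKM of Mthfd2 (SD, n = 3 each).

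The 3 cytosolic enzymes each followed a course of their own. Aldh1l1 (ENSMUSG00000030088.15, chromosome 6, 90486427 to 90600203, plus strand) was at 75.2, 76.3 and 75.0 FPKM in MIM-Astrocytes and at 2.51, 2.09 and 2.11 FPKM in Glioblastoma. It was at 98.8, 103 and 89.5 FPKM in NSC and at 67.9, 77.5 and 67.0 FPKM in Astrocytes. Glioblastoma stood far below the rest, and the highest group was NSC, not Astrocytes. The level in NSC was 43.4 times that in Glioblastoma (Glioblastoma minus NSC -4.92, SE 0.08, adjusted p = 1.59e-11). NSC exceeded Astrocytes by 0.45 (SE 0.08, adjusted p = 0.000375), a call that ended when libraries were scaled to a common total (0.06, adjusted p = 0.654). MIM-Astrocytes and Astrocytes overlapped (0.09, 95% interval -0.08 to 0.27, adjusted p = 0.315, and below 0 after each of 3 rescalings). Of the 8 listed astrocyte markers, which do not include Aldh1l1, 6 were lower and 1 higher in Glioblastoma than in NSC. Of all tested genes 25.1% were lower and 44.8% higher. The 1 higher was Gfap, at 3.20 FPKM in Glioblastoma and 0.964 FPKM in NSC. Gja1, a gap junction protein, averaged 243 FPKM in MIM-Astrocytes, 1.54 FPKM in Glioblastoma, 114 FPKM in NSC and 244 FPKM in Astrocytes. Aqp4, a water channel, averaged 35.5 FPKM in MIM-Astrocytes, 0.125 FPKM in Glioblastoma, 10.8 FPKM in NSC and 397 FPKM in Astrocytes. Their part in the level of Aldh1l1 was not tested.

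Mthfd1, the cytosolic enzyme of 3 activities (ENSMUSG00000021048.7, chromosome 12, 76255298 to 76319803, plus strand), split the cultures differently. MIM-Astrocytes had 42.2, 45.3 and 43.6 FPKM, Glioblastoma 20.3, 17.6 and 18.1 FPKM, NSC 22.8, 21.8 and 18.54 FPKM and Astrocytes 40.5, 44.3 and 39.1 FPKM. The astrocyte cultures overlapped at the high level (0.08, 95% interval -0.11 to 0.27, adjusted p = 0.435, and below 0 after each of 3 rescalings), and Glioblastoma and NSC overlapped at the low one. Mthfd1 fell in Glioblastoma against Astrocytes (-1.10, SE 0.08, adjusted p = 5.53e-07) and in NSC against Astrocytes (-0.94, SE 0.08, adjusted p = 2.88e-06). Between Glioblastoma and NSC the difference was -0.16 (95% interval -0.35 to 0.03, adjusted p = 0.109). It was called at -0.37 to -0.46 after each of the 3 rescalings and without NSC replicate 3 (-0.25, adjusted p = 0.0159).

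Shmt1, the cytosolic serine hydroxymethyltransferase (ENSMUSG00000020534.14, chromosome 11, 60788104 to 60811718, minus strand), was, like the mitochondrial genes, highest in Glioblastoma. It was at 7.91, 7.05 and 8.94 FPKM in MIM-Astrocytes, at 26.7, 23.8 and 25.1 FPKM in Glioblastoma, at 8.28, 8.78 and 6.90 FPKM in NSC and at 1.83, 1.81 and 2.15 FPKM in Astrocytes. MIM-Astrocytes and NSC shared 1 range between the high Glioblastoma and the low Astrocytes libraries. Shmt1 rose 4.13 times in MIM-Astrocytes over Astrocytes (log2 difference 1.61, SE 0.10, adjusted p = 2.06e-07) and was 13.1 times as high in Glioblastoma as in Astrocytes (3.16, SE 0.10, adjusted p = 5.03e-10). The Astrocytes values of Shmt1 had 26.5 to 40.8 fragments implied behind each. MIM-Astrocytes and NSC could not be separated (-0.00, 95% interval -0.22 to 0.22, adjusted p = 0.989).

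Slc19a1, the reduced folate carrier (ENSMUSG00000001436.15, chromosome 10, 77032241 to 77061002, plus strand), was at 1.34, 1.59 and 1.5 FPKM in MIM-Astrocytes, at 7.54, 8.71 and 8.33 FPKM in Glioblastoma, at 1.26, 1.09 and 1.30 FPKM in NSC and at 1.93, 2.09 and 1.74 FPKM in Astrocytes. Glioblastoma was the only group above 2.09 FPKM. Its excess was 6.74 times over NSC (log2 difference 2.05, SE 0.07, adjusted p = 2.87e-09) and 4.27 times over Astrocytes (1.65, SE 0.07, adjusted p = 6.2e-09). The lower level in MIM-Astrocytes than in Astrocytes (-0.24, SE 0.07, adjusted p = 0.0149) lost its call without MIM-Astrocytes replicate 1 (adjusted p = 0.0542) or Astrocytes replicate 2 (0.0537). MIM-Astrocytes lay above NSC in all 3 libraries, by 0.16 (95% interval -0.00 to 0.32, adjusted p = 0.0838). The gene shares 8825 bases with Col18a1, a collagen gene on the opposite strand, which averaged 17.0 FPKM in Glioblastoma and 0.238 to 0.674 FPKM in the other groups. Whether the libraries kept strand is not stated, and the part of Col18a1 in these values was not tested.

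**Figure D2:**
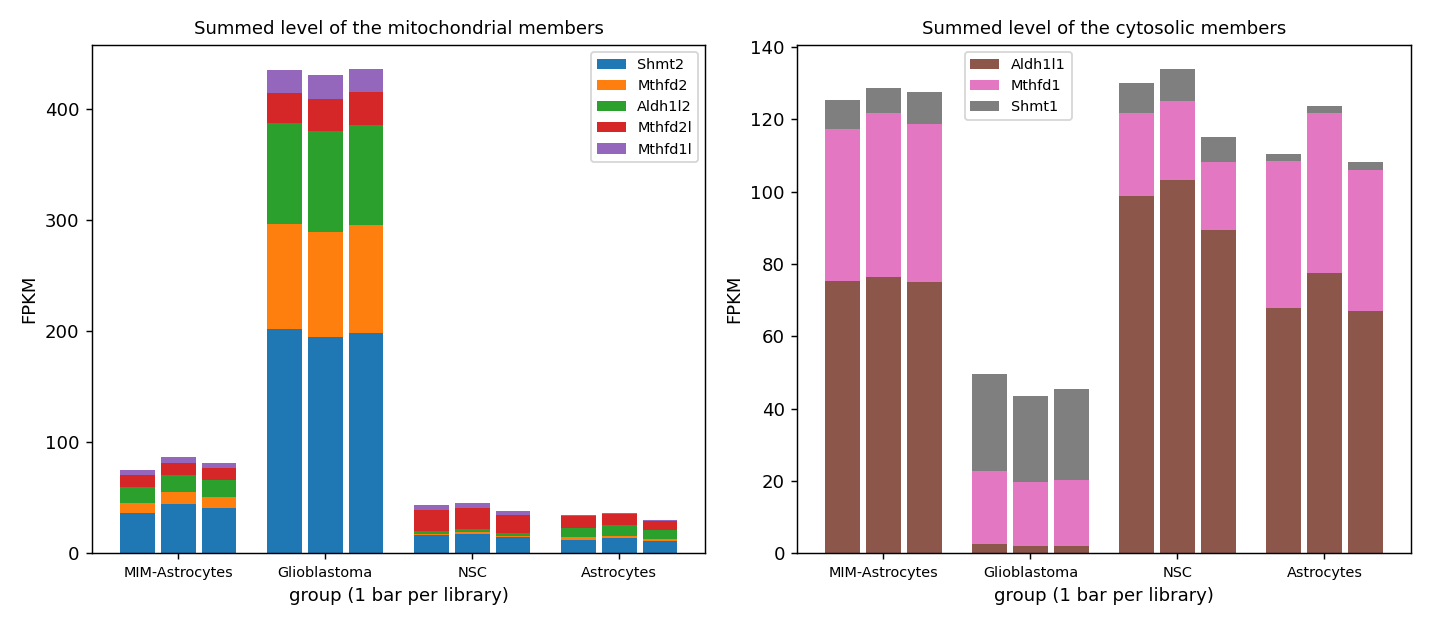
Summed FPKM of the 5 mitochondrial genes (left) and the 3 cytosolic genes (right), 1 stacked bar per library, grouped as MIM-Astrocytes, Glioblastoma, NSC and Astrocytes. The mitochondrial sum lies between 431 and 437 FPKM in Glioblastoma and is at most 86.8 FPKM elsewhere. Aldh1l1 is 4.66% to 5.07% of the Glioblastoma cytosolic bars.

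Summed by compartment, the levels were mostly cytosolic in 3 of the groups and mostly mitochondrial in Glioblastoma. The 5 mitochondrial genes summed to 81.2 ± 5.61 FPKM in MIM-Astrocytes, 434 ± 3.06 FPKM in Glioblastoma, 42.3 ± 3.65 FPKM in NSC and 33.9 ± 3.07 FPKM in Astrocytes (SD, n = 3). The 3 cytosolic genes summed to 127 ± 1.73 FPKM in MIM-Astrocytes, 46.1 ± 3.13 FPKM in Glioblastoma, 126 ± 9.99 FPKM in NSC and 114 ± 8.34 FPKM in Astrocytes. The mitochondrial share of both sums together was 37.6% to 40.3% in MIM-Astrocytes, 89.8% to 90.8% in Glioblastoma, 25.0% to 25.3% in NSC and 22.0% to 23.9% in Astrocytes. These sums are a description of the chosen genes and carry no test. Shmt2 made up 48.2% to 51.1% of the mitochondrial sum in MIM-Astrocytes and 45.3% to 46.4% in Glioblastoma, against 38.2% to 39.2% in NSC and 35.6% to 37.5% in Astrocytes. Aldh1l1 made up 4.66% to 5.07% of the cytosolic sum in Glioblastoma and 58.8% to 77.9% in the libraries of the other groups. Without Aldh1l1, the mitochondrial sum would be the larger in MIM-Astrocytes and NSC as well, but not in Astrocytes.

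Each mitochondrial enzyme was then set against its cytosolic counterpart within each library, as the log2 ratio of FPKM + 1. A ratio within a library does not change with the scaling of the whole library except through the added 1. For all 5 ratios the 4 groups differed in an exact permutation test over the 369600 assignments of the 12 libraries. Adjusted over the 5 ratios, the exact p was 0.000162 for Mthfd1l over Mthfd1 and for Aldh1l2 over Aldh1l1, both from the smallest raw p the design allows (6.5e-05), 0.000216 for Mthfd2 over Mthfd1, 0.000325 for Mthfd2l over Mthfd1 and 0.000649 for Shmt2 over Shmt1. Between single pairs of groups, 27 of the 30 differences had groups that did not overlap. Each of those reached the smallest two-sided exact permutation p that 3 against 3 libraries allow, 0.1 (0.111 adjusted over the 30), so no pair could pass 0.05. Over single genes, libraries of a pair of groups did not overlap for 62.3% to 79.9% of all tested genes.

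**Figure D3:**
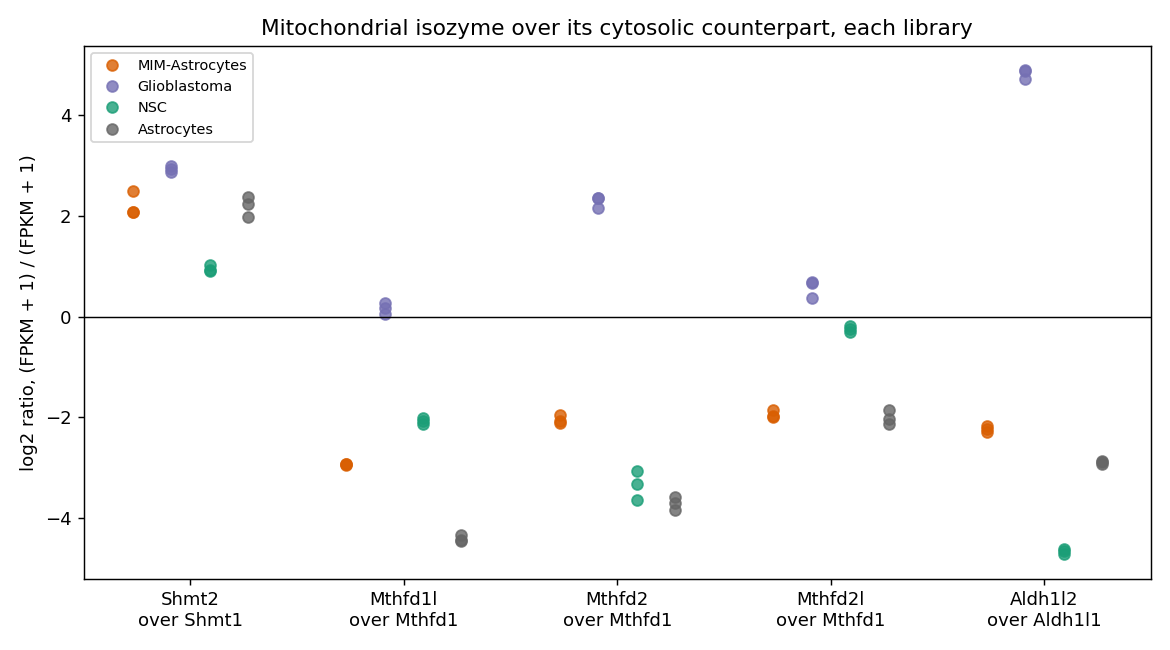
Log2 ratio of each mitochondrial gene over its cytosolic counterpart (vertical axis, FPKM + 1 in both terms) in every library, 1 dot each, for MIM-Astrocytes, Glioblastoma, NSC and Astrocytes. Above 0 the mitochondrial gene is the more abundant: this holds for all 5 ratios in Glioblastoma and for Shmt2 over Shmt1 alone in the other groups.

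Aldh1l2 over Aldh1l1 spanned the widest range, at -2.23 ± 0.06 in MIM-Astrocytes, 4.83 ± 0.10 in Glioblastoma, -4.66 ± 0.06 in NSC and -2.89 ± 0.04 in Astrocytes (SD, n = 3). In plain FPKM, Aldh1l2 was at 36.3 to 43.4 times the level of Aldh1l1 in Glioblastoma libraries and at 0.0272 to 0.0317 times in NSC libraries. Between those groups both terms were called, Aldh1l2 higher in Glioblastoma and Aldh1l1 lower.

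For the dehydrogenase step, Mthfd2 over Mthfd1 was at -2.05 ± 0.09 in MIM-Astrocytes, 2.30 ± 0.11 in Glioblastoma, -3.34 ± 0.29 in NSC and -3.71 ± 0.13 in Astrocytes. MIM-Astrocytes stood above Astrocytes by 1.66 (SE 0.09) and above NSC by 1.30 (SE 0.17), and NSC and Astrocytes overlapped (exact permutation p = 0.2). Mthfd2l over Mthfd1 gave -1.94 ± 0.08 in MIM-Astrocytes, 0.58 ± 0.18 in Glioblastoma, -0.24 ± 0.06 in NSC and -2.01 ± 0.14 in Astrocytes, and here it was MIM-Astrocytes and Astrocytes that overlapped (exact permutation p = 0.4). Whether the Mthfd2 and Mthfd2l ratios differed in their change between MIM-Astrocytes and Astrocytes was not tested.

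For the formate step, Mthfd1l over Mthfd1 was at -2.93 ± 0.01 in MIM-Astrocytes, 0.17 ± 0.11 in Glioblastoma, -2.07 ± 0.06 in NSC and -4.40 ± 0.06 in Astrocytes, and no groups overlapped. In plain FPKM the ratio was 0.11 to 0.113 in MIM-Astrocytes, 1.04 to 1.22 in Glioblastoma, 0.195 to 0.215 in NSC and 0.0222 to 0.0252 in Astrocytes. The rise in MIM-Astrocytes over Astrocytes was 1.48 (SE 0.04). Of its terms, Mthfd1l was called higher and Mthfd1 was not called.

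The serine step behaved otherwise. Shmt2 over Shmt1 was at 2.21 ± 0.24 in MIM-Astrocytes, 2.93 ± 0.06 in Glioblastoma, 0.95 ± 0.06 in NSC and 2.20 ± 0.20 in Astrocytes. MIM-Astrocytes and Astrocytes overlapped, with a difference of 0.02 (SE 0.18, exact permutation p = 1) whose sign changed with a smaller pseudocount, although both genes were higher in MIM-Astrocytes. NSC had the lowest ratio, with Shmt2 at 1.97 to 2.17 times Shmt1 in FPKM. In plain FPKM the ratio was 4.57 to 6.29 in MIM-Astrocytes, 7.56 to 8.21 in Glioblastoma and 5.32 to 7.46 in Astrocytes. Shmt1 averaged 1.93 FPKM in Astrocytes, so the added 1 lowers the ratio most there.

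**Figure D4:**
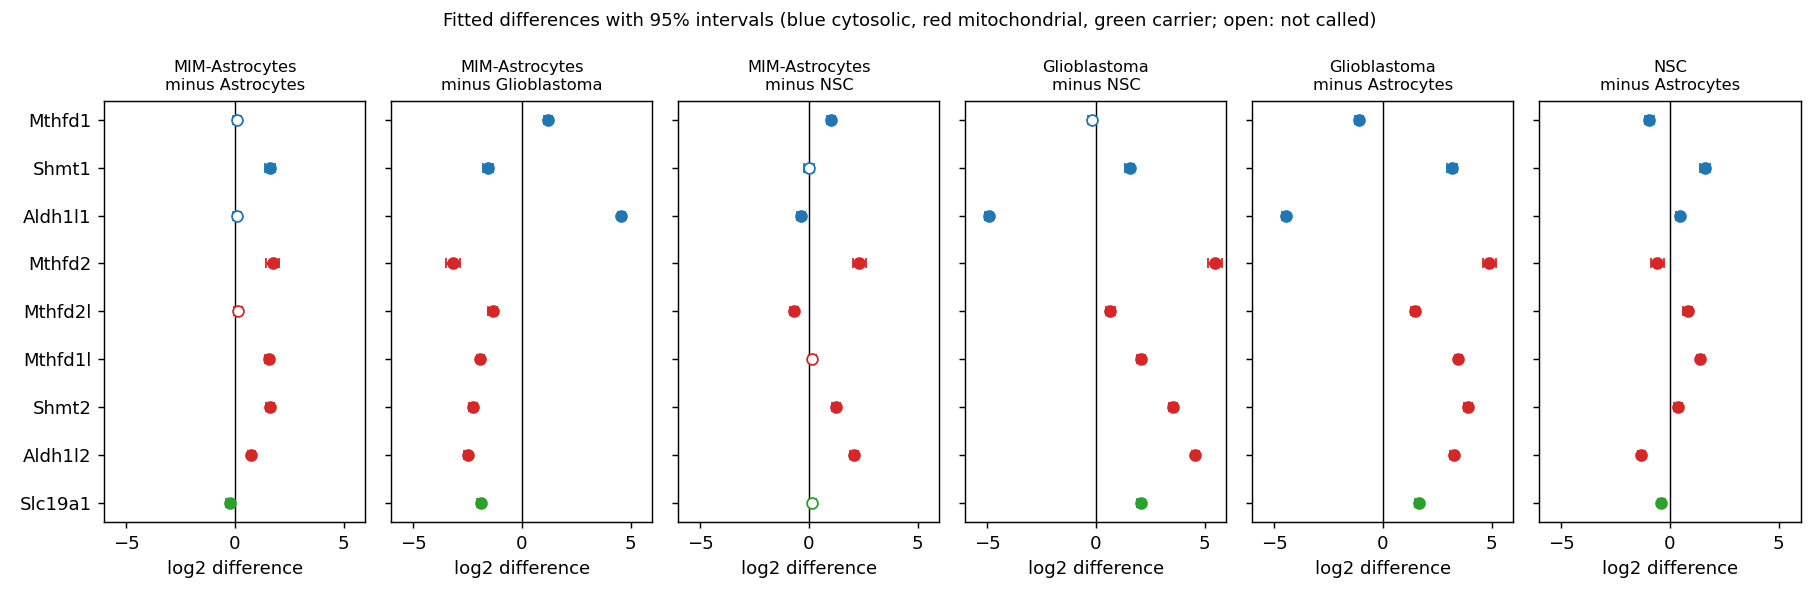
Fitted difference of log2(FPKM + 1) for each gene in the 6 comparisons (horizontal axes), with 95% intervals; filled points are called, open points are not. Red (mitochondrial) points lie right of 0 in the panels of Glioblastoma minus NSC and Glioblastoma minus Astrocytes, and blue (cytosolic) points on both sides.

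Taken by comparison, all 5 mitochondrial genes were called higher in Glioblastoma than in Astrocytes (median log2 difference 3.47), where 47.0% of all tested genes were higher and the median of all genes was 0.23. The 3 cytosolic genes had 1 higher and 2 lower there (median -1.10, beside 31.3% of all genes lower). Against NSC all 5 mitochondrial genes were again higher in Glioblastoma (median 3.53, beside 44.8% of all genes and an overall median of 0.19), with 1 cytosolic gene higher, 1 lower (25.1% of all genes were lower) and 1 not called. In MIM-Astrocytes against Astrocytes 4 mitochondrial genes rose and Mthfd2l was not called (median 1.56, beside 34.8% of all genes and an overall median of 0.09), and of the cytosolic genes Shmt1 rose. In MIM-Astrocytes against NSC 3 mitochondrial genes were higher and 1 lower (median 1.26, beside 31.0% of all genes higher and 24.9% lower), and of the cytosolic genes Mthfd1 was higher (1.02, SE 0.08) and Aldh1l1 lower (-0.36, SE 0.08). In MIM-Astrocytes against Glioblastoma all 5 were lower (median -2.27, beside 41.5% of all genes), and of the cytosolic genes Mthfd1 and Aldh1l1 were higher (beside 28.3%) and Shmt1 lower. In NSC against Astrocytes 3 were higher and 2 lower (median 0.37, beside 37.7% and 33.4%), and of the 3 cytosolic genes 2 were higher and 1 lower (median 0.45). These 2 medians are the values of Shmt2 and Aldh1l1, whose calls ended under a common total (-0.0064 and 0.06). These comparisons share groups, and the genes were chosen with earlier results known.

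The remaining genes of folate metabolism moved in both directions. Of 23 listed carriers, interconverting enzymes, users of folate carbon and glycine cleavage genes, 20 were tested, and Folr2, Dmgdh and Ftcd were below the filter. In MIM-Astrocytes against Astrocytes 8 were higher and 6 lower (median 0.06, beside 34.8% and 26.6% of all genes). Thymidylate synthase Tyms (25.5 ± 1.59 against 1.31 ± 0.198 FPKM) rose. The folate receptor Folr1 (0.0549 to 0.181 FPKM against 12.1 to 14.9 FPKM) and methionine synthase Mtr (6.86 ± 0.568 against 15.9 ± 0.103 FPKM) fell. These genes were also among the 4 with the smallest p of the list in Glioblastoma against Astrocytes, where 9 were higher and 10 lower (median -0.16, beside 47.0% and 31.3% of all genes). Tyms averaged 15.1 ± 1.36 FPKM and Mtr 6.09 ± 0.142 FPKM in Glioblastoma, and Folr1 was between 0 and 0.144 FPKM.

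In Glioblastoma against NSC 11 of the 20 were higher and 3 lower (median 0.35, beside 44.8% and 25.1% of all genes and their median of 0.19), those higher including Atic, the last purine enzyme that uses folate (log2 difference 1.53), Qdpr, a pterin reductase (1.51), and Dld, a subunit of the glycine cleavage system and of other complexes (0.96). In MIM-Astrocytes against NSC 12 were higher and 2 lower (median 0.35, beside 31.0% and 24.9%), those higher including Tyms (1.59), the glycine cleavage carrier Gcsh (1.67) and the sarcosine dehydrogenase Sardh (1.17). In MIM-Astrocytes against Glioblastoma 9 were higher and 5 lower (median 0.15, beside 28.3% and 41.5%), with Atic lower (-1.34) and Sardh (1.34), the polyglutamate hydrolase Ggh (1.06) and Mthfs, which returns a stored folate form to use (1.29), higher. In NSC against Astrocytes 4 were higher and 10 lower (median -0.34, beside 37.7% and 33.4%), with Folr1 (-3.79), Mtr (-1.57) and the glycine cleavage gene Amt (-1.88) lower and Tyms (1.93) higher. The limma differences named for this list had an adjusted p of at most 1.13e-05 (Mthfs), and groups that did not overlap.

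Proliferation, amino acid stress and serine synthesis genes were also set beside the members, and their group orders differed. The 6 proliferation markers summed to 441 to 486 FPKM in MIM-Astrocytes, 478 to 501 FPKM in Glioblastoma, 145 to 169 FPKM in NSC and 24.3 to 34.3 FPKM in Astrocytes. None was at 0 throughout a group, and 3 averaged below 1 FPKM in Astrocytes. The stress transcription factor gene Atf4, a known activator of Mthfd2, Shmt2 and serine synthesis genes in mammalian cells, was at 50.5 ± 3.52 FPKM in MIM-Astrocytes, 229 ± 7.26 FPKM in Glioblastoma, 40.5 ± 3.44 FPKM in NSC and 24.6 ± 4.96 FPKM in Astrocytes. Asns, asparagine synthetase, was at 37.2 ± 0.96 FPKM in MIM-Astrocytes, 320.2 ± 15.2 FPKM in Glioblastoma, 10.7 ± 1.56 FPKM in NSC and 14.98 ± 1.29 FPKM in Astrocytes. Chac1, a glutathione-degrading enzyme, stood at 41.1 ± 0.633 FPKM in Glioblastoma and between 0.136 and 1.13 FPKM in every other library. Of the 6 listed ATF4 response genes, 6 were higher in Glioblastoma than in NSC (median 3.96, beside 44.8% of all genes). In MIM-Astrocytes against Astrocytes 5 were higher and 1, Ddit3, lower (median 0.66, beside 34.8% and 26.6%). Of those 5, Trib3 (0.371 against 0.170 FPKM) and Chac1 (1.05 against 0.661 FPKM) lay near or below 1 FPKM. In NSC against Astrocytes, where 37.7% of all genes were higher and 33.4% lower, 1 was higher, Atf4 itself (0.71), and 3 were lower, Asns (-0.46), Ddit3 (-0.92) and Chac1 (-0.51). In MIM-Astrocytes against Glioblastoma 5 of the 6 were lower and Sesn2 was higher (0.22), beside 41.5% and 28.3% of all genes. The 3 serine synthesis genes were all higher in MIM-Astrocytes than in Astrocytes and in Glioblastoma than in NSC (medians 0.96 and 1.79, beside 34.8% and 44.8% of all genes), Psph with 157 ± 10.8 FPKM in Glioblastoma and 35.0 ± 3.5 FPKM in NSC. In NSC against Astrocytes Phgdh was higher (0.66), Psat1 lower (-0.51) and Psph not called, beside 37.7% and 33.4%. In MIM-Astrocytes against NSC 2 were higher, beside 31.0%, and Phgdh was not called (-0.28). The part of these genes in the levels of the folate enzymes was not tested.

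**Figure D5:**
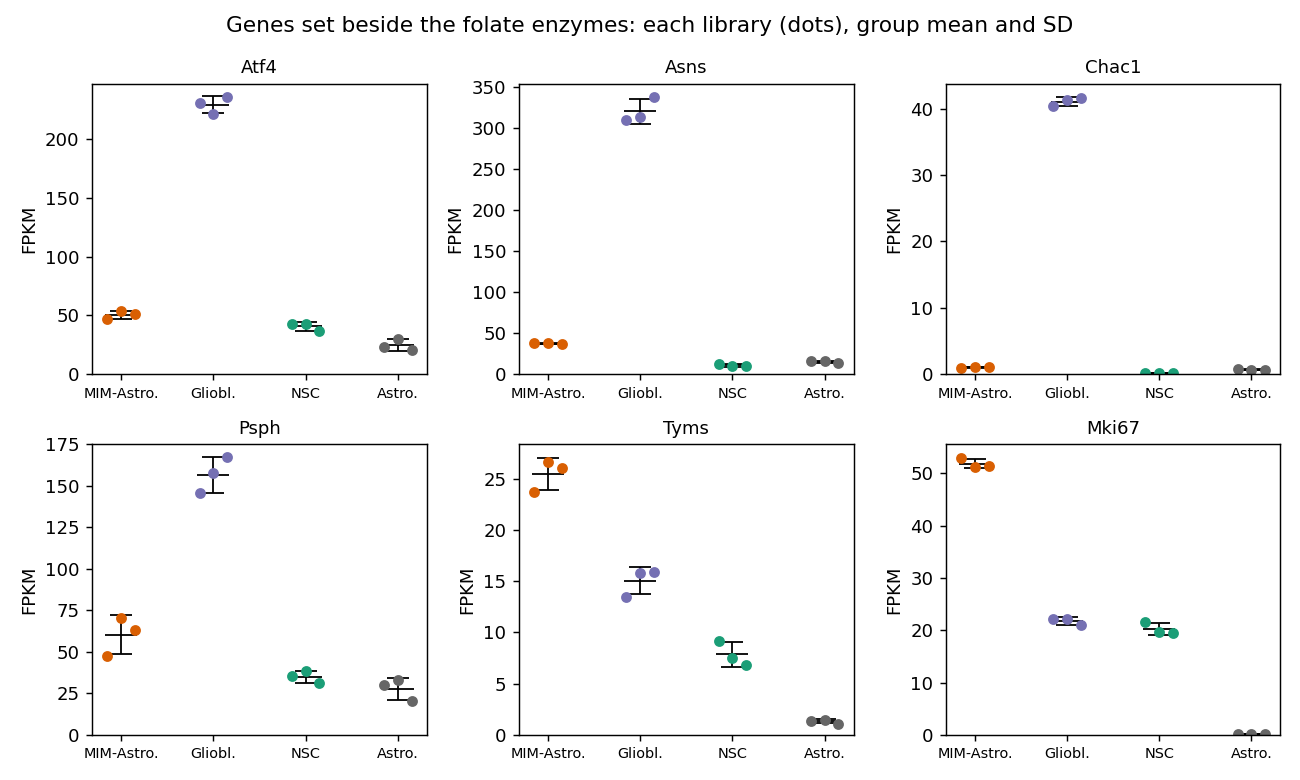
FPKM (vertical axes from 0) of Atf4, Asns, Chac1, Psph, Tyms and Mki67 in every library (dots) with group mean and SD (n = 3), for MIM-Astrocytes, Glioblastoma, NSC and Astrocytes. Atf4, Asns, Chac1 and Psph are highest in Glioblastoma, and Tyms and Mki67 in MIM-Astrocytes.

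The genes most like each member were sought among 11959 named protein-coding genes by the root mean square difference of log2(FPKM + 1) over the 12 libraries, after each gene was centred on its own mean. Nearest to Mthfd2 were Vegfa (0.271) and Asns (0.348), and nearest to Aldh1l2 were Cyb5r1 (0.224) and Asns (0.422). Shmt2 had Eif4ebp1 (0.190) and Lmcd1 (0.211), Mthfd1l had Irx1 (0.169) and Adamts4 (0.206), and Mthfd2l had Kif3a (0.0831) and Ap4m1 (0.0950). Among the cytosolic genes, Aldh1l1 had Tmem132b (0.189) and Ednrb (0.283), Shmt1 had Cdkn2aipnl (0.138) and Fyn (0.176), and Mthfd1 had Pex7 (0.0870) and Cndp2 (0.0906). Slc19a1 had Dennd3 (0.0869) and Glrx2 (0.115). For scale, the median of this measure over all genes was 0.647 for Mthfd2l and 2.15 for Aldh1l1. Tmem132b, like Aldh1l1, was lowest in Glioblastoma (0.107 FPKM, against 31.3 FPKM in MIM-Astrocytes, 37.0 FPKM in NSC and 33.04 FPKM in Astrocytes). Aldh1l1 averaged 2.24 FPKM in Glioblastoma.

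The identity of the cultures was checked by marker lists. The 8 astrocyte markers summed to 1983 to 2403 FPKM in MIM-Astrocytes, 495 to 518 FPKM in Glioblastoma, 836 to 972 FPKM in NSC and 1555 to 1782 FPKM in Astrocytes, with Glul and Slc1a3 the most abundant in MIM-Astrocytes (971 and 860 FPKM). In MIM-Astrocytes against Astrocytes 4 of the 8 were higher and 3 lower, beside 34.8% and 26.6% of all genes. Gfap, an intermediate filament of astrocytes, averaged 7.35 FPKM in MIM-Astrocytes, 3.20 FPKM in Glioblastoma, 0.964 FPKM in NSC and 258 FPKM in Astrocytes. The 6 neural stem cell markers, mostly Fabp7, summed to 4079 to 4478 FPKM in MIM-Astrocytes, 914 to 1059 FPKM in Glioblastoma, 2694 to 3210 FPKM in NSC and 834 to 1051 FPKM in Astrocytes, so this sum was highest in MIM-Astrocytes. The 6 neuron markers summed to at most 303 FPKM (NSC) and at least 104 FPKM (Astrocytes), nearly all of it Map2 (285 FPKM in NSC and 102 FPKM in Astrocytes), and the 6 markers of the oligodendrocyte lineage to at most 174 FPKM (NSC) and at least 35.5 FPKM (Astrocytes). The 6 microglia markers summed to at most 1.29 FPKM and the 4 endothelial markers to at most 1.88 FPKM in any library, with Cdh5 listed at 0 in all 4 groups. The 5 meningeal fibroblast markers summed to at most 3.73 FPKM in MIM-Astrocytes, Glioblastoma and NSC, and to 154 to 184 FPKM in Astrocytes. Nearly all of the sum in Astrocytes was Ogn (164 FPKM), with Dcn at 0.0584 FPKM and Lum listed at 0. Of the 5, 3 averaged below 1 FPKM in Astrocytes and 2 passed the filter for testing. Both of these were called lower than in Astrocytes in MIM-Astrocytes, Glioblastoma and NSC, beside 26.6%, 31.3% and 33.4% of all genes. The part of the listed markers in the levels of the folate genes was not tested.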

How the data were processed

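Each of the 12 tables holds 1 library, with an FPKM value per line and 45 of the gene identifiers on more than 1 line. Per the file headers and the submitters' processing notes, the authors computed FPKM with Cufflinks on GRCm38 and deposited it with a lower and an upper bound; version, aligner, strandedness and filters are not given in the sources used here. Of 53932 identifiers, 99.9% were found in GENCODE M21, and start and end matched for 9 of 9 members. Values on repeated lines of an identifier were added. Tested genes had 1 FPKM in at least 3 libraries and status OK in all 12. limma 3.58.1 (R 4.3.3) fitted log2(FPKM + 1) to 4 group means, leaving 8 residual degrees of freedom; its moderated tests used an intensity trend and were two-sided, and the script was tested on simulated data. Ratios, sums and exact permutation tests used Python 3.11.15, NumPy 2.4.6 and pandas 2.3.3, and figures matplotlib 3.10.9. Promoters are from RefSeq (GRCm38.p6), with 250 of 300 bases searched on both strands. All 9 members are reported in every comparison. Of the other folate genes, the 4 with the smallest p in a comparison are named, except 1 gene that is not reported here, and of the patterns the 2 nearest to each member. Members and lists were chosen with earlier results of these data known. Alternatives were pseudocounts of 0.1 and 0.5, 2 other filters, 3 rescalings, fits of 2 groups, a replicate block, the highest line of an identifier and each library left out. Within a group, libraries correlated at 0.968 to 0.977 across genes.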

Additional observations from a re-analysis of the deposited data

How the results depend on the processing

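Of 1182 member differences under the alternatives, 1162 kept their direction and their side of the threshold, 8 changed side and 12 changed sign. Of the 12, 11 were called neither before nor after. In MIM-Astrocytes against Astrocytes, median-of-ratios scaling, a common total and a common total without mitochondrial genes and small RNAs gave -0.034, -0.25 and -0.020 for Mthfd1 and -0.022, -0.24 and -0.0074 for Aldh1l1, and a common total gave -0.17 for Mthfd2l. Shmt1 in MIM-Astrocytes against NSC was at 0.052 under a common total and between -0.093 and 0.073 with single libraries left out. Shmt2 in NSC against Astrocytes, called as deposited, was at -0.0064 under a common total. The filter of a mean of at least 5 FPKM left 10289 genes, so fewer genes could be called. The number called was 6807 in MIM-Astrocytes against Astrocytes and 7665 against Glioblastoma. It was 7681 in Glioblastoma against NSC, 8446 against Astrocytes and 7745 in NSC against Astrocytes. In each of these comparisons the called share of the tested genes was larger than in the main fit. That filter also removed Slc19a1. Scaling to a common total moved the median difference of all genes by -0.27, 0.22, -0.18, -0.51 and -0.32 in these 5 comparisons. It changed the higher and lower calls to 3198 and 6973 (5911 and 4512 as deposited), 6149 and 4728 (4802 and 7045), 5566 and 5112 (7611 and 4265), 4569 and 8237 (7983 and 5311) and 3734 and 8043 (6407 and 5680). Median-of-ratios scaling moved the median by 0.17 in MIM-Astrocytes against Glioblastoma, -0.22 in Glioblastoma against NSC and -0.27 against Astrocytes, with 6202 and 5634, 5710 and 6059, and 6258 and 6907 calls. Scaling without mitochondrial genes and small RNAs moved it by 0.18, -0.24 and -0.28, with 6175 and 5464, 5483 and 6095, and 6066 and 6807 calls. All 5 exact tests of the isozyme ratios stayed below 0.05 under each alternative tried, the 12 libraries left out in turn included; of 120 pairwise ratio differences under the other alternatives, 38 moved by more than the replicate spread and 82 did not. Same-numbered libraries deviated together at -0.058 to 0.097 and others at -0.121 to 0.074, so numbers were not taken to pair samples. With a replicate block 6, 9, 6, 8, 9 and 9 members were called in the 6 comparisons, as without it. Values near 1 or 2 FPKM rest on few fragments and on the added 1. The implied fragments were 17.3 to 24.7 for Mthfd2 in NSC and 26.5 to 40.8 for Shmt1 in Astrocytes. They were 28.5 to 36.8 for Slc19a1 in NSC and 38.4 to 68.0 in MIM-Astrocytes. In Astrocytes they were 33.8 to 42.5 for Mthfd2 and 61.6 to 125 for Mthfd1l.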
